A study of Mus musculus with 18 samples.

Results

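Tumours grown in Adra2a knockout hosts and in wild-type hosts, all given PBS, were compared across all expressed genes. The members were the 3 libraries titled KO-Control and the 3 titled WT-Control, 6 of the 18 libraries in the series. Tumours came from MC38-OVA cells, a mouse colon carcinoma line that carries the model antigen ovalbumin, and bulk tumour RNA was sequenced 7 days after treatment. KO-Control hosts had the genotype entry ADRA2A-/-, WT-Control hosts had the entry wild type, and the age entry of both was 10 weeks. The labels give PBS in the protocol, Control in the titles and Untreated in the treatment entries of these 6 libraries, and name MC38-OVA as the strain, and the sources used here do not state the mouse strain, the sex of the hosts or the design of the Adra2a allele. The implanted tumour cells were the same line in both genotypes and carry their own genome, so only the cells of the host lacked Adra2a. The other 12 libraries (KO-Clonidine, WT-Clonidine, KO-Guanabenz and WT-Guanabenz, 3 each) came from hosts injected with the alpha2 agonists clonidine or guanabenz. They share no library with the PBS comparison and are used to set the same genotype difference beside it and to estimate the spread of each gene. For the 3 KO-Guanabenz libraries the treatment entry reads Untreated, against their titles, and the title was followed.

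Adra2a encodes the alpha2A-adrenergic receptor, which binds noradrenaline and adrenaline and couples through Gi proteins to lower cyclic AMP. Presynaptic alpha2A receptors restrain the release of noradrenaline from sympathetic nerves, and the receptor also lowers sympathetic outflow from the brain. It is expressed on several host cell types, including some myeloid cells and adipocytes. A comparison without any agonist shows the tumour under the basal tone of the host.

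The library totals were 66.6e6, 78.6e6 and 109.8e6 estimated counts in KO-Control and 98.8e6, 96.5e6 and 491.1e6 in WT-Control. Levels are given as CPM, the counts of a gene as a share of its library scaled to 1e6, with library sizes adjusted by the trimmed mean of M values. CPM is not divided by transcript length, so levels are compared between libraries and not between genes. Differences are log2 KO-Control minus WT-Control with the standard error (SE) from edgeR's quasi-likelihood fit, and adjusted p-values are Benjamini-Hochberg over all 16125 genes tested. The pan-leukocyte gene Ptprc lay between 116 and 129 CPM in KO-Control and between 114 and 158 CPM in WT-Control. The epithelial keratin genes Krt8 and Krt18, which mark many carcinomas, were nearly absent, at 0.0272 to 0.35 CPM in KO-Control and 0.0455 to 0.411 CPM in WT-Control. Y-linked transcripts (mean of Ddx3y, Eif2s3y and Uty above 1 CPM) were present in 2 of 3 KO-Control libraries, all but replicate 3, and in 3 of 3 WT-Control libraries. The labels do not say that each library came from a separate animal, and the spread that the p-values measure may therefore be partly technical.

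Adra2a itself was expressed at a trace level in these tumours. It had 0.106, 0.231 and 0.199 CPM in KO-Control (7, 18 and 22 counts) and 0.589, 0.401 and 0.286 CPM in WT-Control (58, 39 and 138 counts). All 3 KO-Control libraries lay below all 3 WT-Control libraries, but none of the KO-Control libraries was at 0. The difference was -1.20 ± 0.34 (SE, n = 3 each) with an unadjusted p of 0.00279, and it did not pass the adjustment over all genes (edgeR adjusted p = 1). The same difference was -0.79 ± 0.33 under clonidine and -1.68 ± 0.36 under guanabenz, and the genotypes did not overlap there either. The sources used here do not say which part of the gene the allele removes, so counts from transcripts outside a deleted part cannot be told apart from tumour-cell transcripts.

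The genotype comparison under PBS called 1 gene of 16125, which is 0.0062% of those tested: Neurl1a rose and no gene fell (edgeR, adjusted p under 0.05). At an unadjusted p under 0.05 there were 594 genes (3.68%), of which 363 were higher (2.25%) and 231 lower (1.43%) in KO-Control. The 3 KO-Control values did not overlap the 3 WT-Control values in 1343 genes (8.33%), 735 with higher KO-Control values (4.56%) and 608 with lower ones (3.77%). The fitted difference was above 0 in 50.1% of genes, its median was 0.00, and its interquartile range lay between -0.08 and 0.08. The 95% interval of a gene extended to a median of 0.24 on either side on the log2 scale, a factor of 1.18. The same genotype contrast called 403 genes under clonidine (2.5%) and 3 genes under guanabenz (0.0186%). Among the agonist groups, 0 of 3 KO-Clonidine libraries, 2 of 3 WT-Clonidine libraries and 2 of 3 in each guanabenz group held Y-linked transcripts, and their part in these counts was not tested. The PBS and clonidine genotype differences were tested against each other gene by gene, which called no gene (smallest edgeR adjusted p = 0.0572, 1442 genes, 8.94%, at an unadjusted p under 0.05). DESeq2 called 37 genes and limma-voom 2 genes in that test. With DESeq2 the PBS comparison itself had 17 calls, 13 higher and 4 lower in KO-Control. Among the lower calls Krt81 had a fitted log2 difference of -19.12, and no fold is read from a value of that size.

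Neurl1a, which encodes an E3 ubiquitin ligase of the neuralized family that acts on Notch ligands, was expressed at 12.7, 14.5 and 15.4 CPM in KO-Control and at 8.35, 6.19 and 5.98 CPM in WT-Control. Every KO-Control library exceeded every WT-Control library, the highest WT-Control value being that of replicate 1. The means were 14.2 ± 1.4 CPM in KO-Control and 6.84 ± 1.3 CPM in WT-Control (SD, n = 3 each), a 2.08-fold rise in KO-Control with a log2 difference of 1.06 ± 0.15 and an edgeR adjusted p of 0.048. The rise was also called in the hosts given the agonists, which share no library with the PBS hosts but share the estimate of the spread. Under clonidine Neurl1a averaged 16.2 ± 0.65 CPM in KO hosts and 6.77 ± 1.1 CPM in WT hosts (log2 1.26, edgeR adjusted p = 0.00508). Under guanabenz it averaged 17.6 ± 3.2 CPM in the libraries titled KO-Guanabenz and 6.68 ± 0.44 CPM in WT-Guanabenz (log2 1.39, edgeR adjusted p = 0.00152). The 3 genotype differences were not shown to differ, with PBS minus clonidine at -0.20 ± 0.21 and PBS minus guanabenz at -0.34 ± 0.21 (edgeR adjusted p = 0.812 and 0.901). Nerve and Schwann cell genes, a list that would mark nerve tissue, summed to 84.51 to 131.5 CPM in KO-Control and 98.01 to 118.2 CPM in WT-Control, and those ranges overlapped. The part of nerve tissue in the Neurl1a difference was not tested. In the PBS comparison alone the call was near its threshold: it was lost when any 1 library other than WT-Control replicate 1 was left out (log2 0.97 to 1.13, edgeR adjusted p 0.0811 to 0.412). It was also lost with a term for Y-linked transcripts (log2 1.06, edgeR adjusted p = 0.137).

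**Figure D1:**
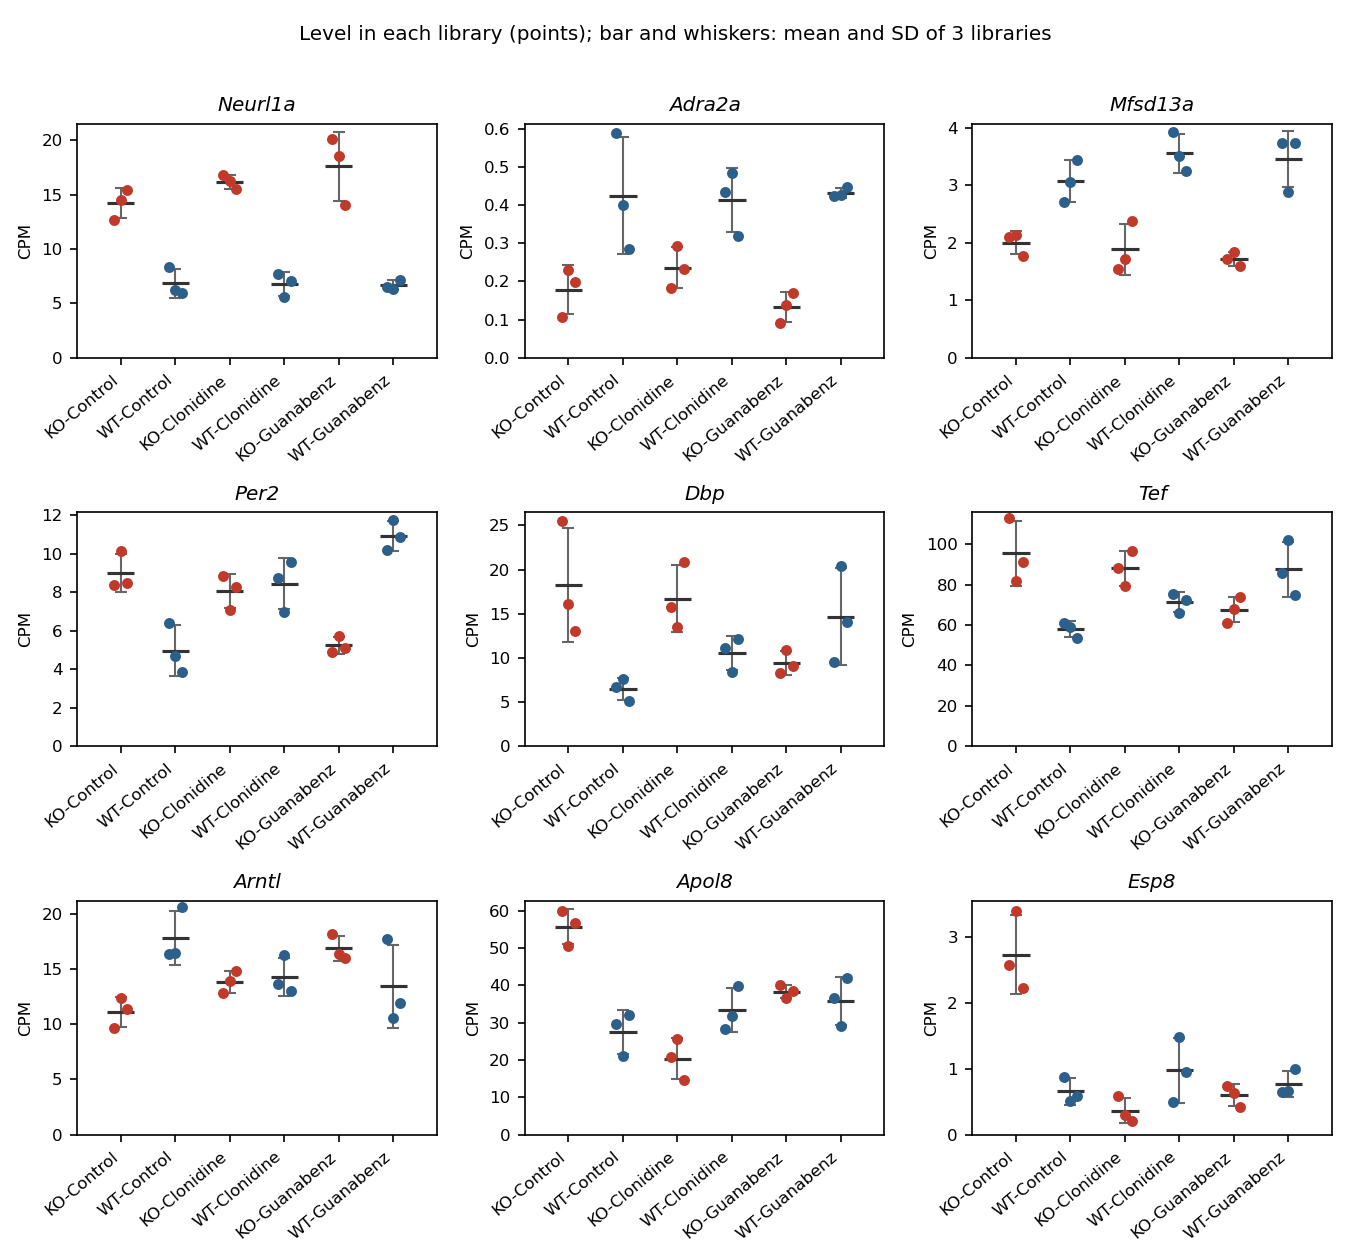
Level in CPM (vertical axes, from 0) of 9 genes in all 18 libraries, by group. Each point is 1 library, the short bar is the mean and the whiskers are the SD of 3 libraries, with KO groups in red and WT groups in blue. Neurl1a is higher and Mfsd13a lower in KO than in WT at each treatment, whereas Per2, Dbp, Tef and Arntl differ one way under PBS and the other way under guanabenz.

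Neurl1a lies on chromosome 19 (47178820 to 47259441, GRCm38.p6), 6.87 Mb from the start of Adra2a (54045259), so the genes of that chromosome were examined by distance. Within 5 Mb of Adra2a 34 other genes were tested, and 2 of them (5.88%) had an unadjusted p under 0.05. Between 5 and 10 Mb the count was 9 of 81 (11.1%), on the rest of chromosome 19 it was 12 of 429 (2.8%), and on the other chromosomes 570 of 15580 (3.66%). The 5 Mb limit belonged to the rule for named genes, and the 10 Mb limit was chosen after the positions of Neurl1a and Mfsd13a were seen. The 3 treatments share no library but share the estimate of each gene's spread, so their p-values are not fully independent. A stricter count required an unadjusted p under 0.05 and the same sign in each treatment. This held for 1 of 34 genes within 5 Mb (2.94%), 4 of 81 between 5 and 10 Mb (4.94%), 1 of 429 on the rest of the chromosome (0.233%) and 16 of 15580 elsewhere (0.103%). Neighbouring genes share a chromosome segment and are not independent of each other.

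Within the 5 Mb window the smallest p was that of Pdcd4, an inhibitor of translation initiation 0.153 Mb from Adra2a. Its values were 26.33, 22.99 and 27.79 CPM in KO-Control and 21.09, 21.78 and 21.29 CPM in WT-Control, with no overlap (log2 0.27 ± 0.07, edgeR adjusted p = 0.962). The next was Rbm20, a splicing regulator best known in heart muscle, at 4, 6 and 15 counts in KO-Control and 18, 35 and 80 counts in WT-Control. On the CPM scale Rbm20 had 0.0608, 0.0769 and 0.136 in KO-Control and 0.183, 0.36 and 0.166 in WT-Control, without overlap (log2 -1.27 ± 0.43, edgeR adjusted p = 1). Xpnpep1, an aminopeptidase gene and the third of the window, had 64.8, 61.6 and 60.4 CPM in KO-Control and 57.1, 55.7 and 61.8 CPM in WT-Control, and its groups overlapped.

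Mfsd13a, a predicted membrane transporter gene 7.69 Mb from Adra2a, was one of the 10 genes with a negative difference and the smallest p that the naming rule took from the whole table. It had 2.10, 2.13 and 1.77 CPM in KO-Control and 2.71, 3.06 and 3.44 CPM in WT-Control, without overlap (log2 -0.63 ± 0.17, edgeR adjusted p = 0.962). Under clonidine the difference was -0.91 (edgeR adjusted p = 0.0217) and under guanabenz -1.01 (edgeR adjusted p = 0.0807). Scd3, a stearoyl-CoA desaturase gene next to its paralogs, had 0.532, 0.577 and 0.598 CPM in KO-Control and 0.69, 1.16 and 0.977 CPM in WT-Control (log2 -0.73 ± 0.21, edgeR adjusted p = 1). Reads shared with the other desaturase genes make its level uncertain. Pyroxd2, a predicted oxidoreductase gene 11.3 Mb away, had 3.65, 3.74 and 3.85 CPM in KO-Control and 2.89, 2.35 and 1.90 CPM in WT-Control (log2 0.66 ± 0.21, edgeR adjusted p = 1). For Scd3 and Pyroxd2 the groups did not overlap. Tlx1, a homeobox transcription factor gene, had 0, 0 and 1 counts in KO-Control and 6, 15 and 55 counts in WT-Control, and no fold is given at that level. Scd3, Pyroxd2 and Tlx1 are named because of their values in the 3 treatments.

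**Figure D2:**
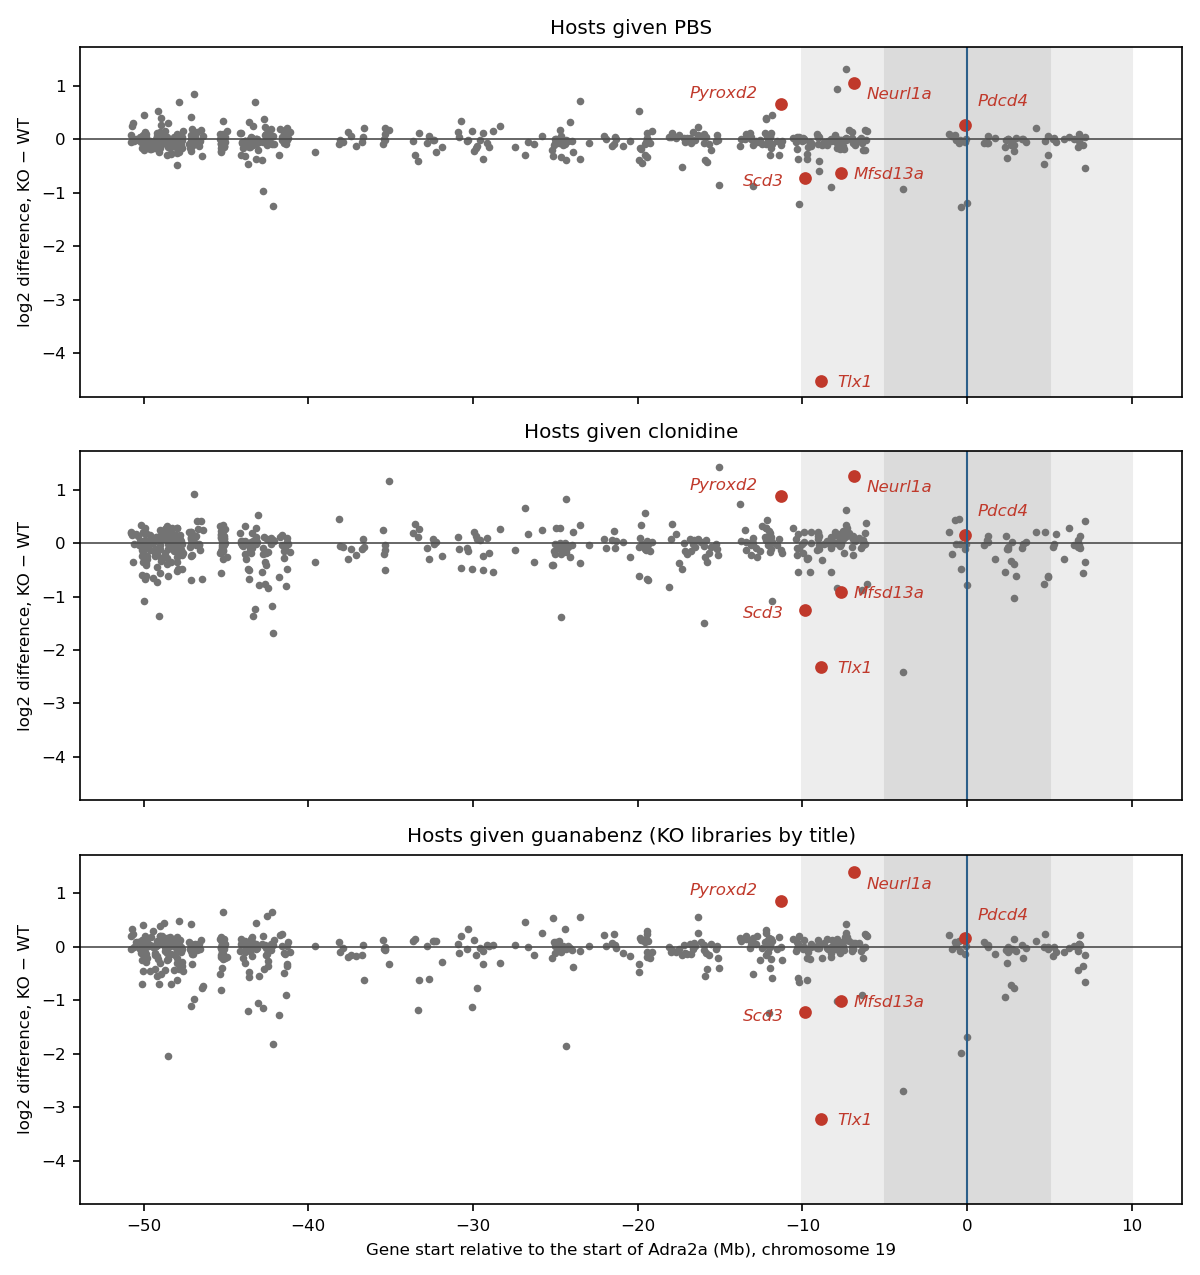
Log2 difference KO minus WT (vertical axis) of the tested genes of chromosome 19 against the distance of the gene start from the start of Adra2a in Mb (horizontal axis, blue line at 0), for hosts given PBS, clonidine or guanabenz. The grey bands mark 5 Mb and 10 Mb on either side, and red points are the 6 genes other than Adra2a that had the same sign and an unadjusted p under 0.05 in all 3 treatments. The fitted value of Tlx1 rests on 1 count in KO-Control and depends on the prior count.

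Among the 45 gene lists examined, the circadian clock list held the highest share of genes with an unadjusted p under 0.05. The clock is a feedback loop in which the transcription factors encoded by Arntl and Clock switch on the Per, Cry and Nr1d genes and the output factors Dbp and Tef. The Per and Cry proteins then repress that activation and the Nr1d receptors repress Arntl, so that Arntl peaks at the opposite time of day from Dbp and the Per genes. Of 19 clock genes tested, 9 (47.4%) had an unadjusted p under 0.05, against 3.68% of all genes, 8 of them higher and 1 lower in KO-Control. No clock gene passed the adjustment over all genes with edgeR on all 18 libraries, and 6 did with DESeq2. Per2 and Nr1d2 each passed with edgeR when 1 WT-Control library was left out. The groups did not overlap for 8 of 19 (42.1%), against 8.33% of all genes. The list median was 0.25, with 13 of 19 above 0, and it was 0.36 without KO-Control replicate 3. Clock genes are linked by that feedback loop and are not independent of each other, and members of other lists may also vary together. The labels give the day of collection and no hour.

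The output factors came first by p. Tef, a PAR bZIP transcription factor gene, had 113, 81.9 and 91.3 CPM in KO-Control and 61.1, 59.2 and 53.7 CPM in WT-Control. Dbp, of the same family, had 25.5, 16.1 and 13.1 CPM in KO-Control and 6.72, 7.64 and 5.17 CPM in WT-Control. For both genes every KO-Control library was above every WT-Control library and KO-Control replicate 1 was the highest. The differences were 0.72 ± 0.12 for Tef and 1.49 ± 0.27 for Dbp, that is 1.64-fold and 2.81-fold (edgeR adjusted p = 0.121 and 0.182).

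In the repressor arm Per2 had 8.38, 10.1 and 8.49 CPM in KO-Control and 6.38, 4.68 and 3.82 CPM in WT-Control (log2 0.86 ± 0.16, edgeR adjusted p = 0.182). Per3 had 14.2, 13.3 and 11.4 CPM in KO-Control and 7.90, 9.15 and 6.82 CPM in WT-Control (log2 0.71 ± 0.17, edgeR adjusted p = 0.66). Nr1d2, which encodes the receptor REV-ERB beta, had 80.1, 66.6 and 62.5 CPM in KO-Control and 41.1, 61.1 and 37.8 CPM in WT-Control (log2 0.58 ± 0.14, edgeR adjusted p = 0.672). In these 3 genes the lowest KO-Control library was still above the highest WT-Control library. Nr1d1, which encodes REV-ERB alpha, had 38.2, 34.0 and 21.9 CPM in KO-Control and 15.5, 23.5 and 19.4 CPM in WT-Control, and the groups overlapped through KO-Control replicate 3 (log2 0.69 ± 0.19). The repressor genes Ciart and Cry2 did not overlap and differed by 0.54 ± 0.19 and 0.25 ± 0.09. Per1 and Cry1 overlapped and differed by 0.21 and 0.14. The edgeR adjusted p was 0.962 for Nr1d1 and 1 for Ciart, Cry2, Per1 and Cry1.

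The activator Arntl, which encodes BMAL1, stood on the other side. It had 9.68, 12.4 and 11.3 CPM in KO-Control and 16.3, 16.5 and 20.7 CPM in WT-Control, without overlap (log2 -0.68 ± 0.16, edgeR adjusted p = 0.66). Its partner gene Clock differed by -0.11, and Npas2, a relative of Clock, by -0.85 with overlapping groups. Nfil3, a repressor of the sites that Dbp and Tef bind, differed by -0.30. Per3, Nr1d1, Nr1d2, Cry2 and Ciart are named because of their values, the rule having taken Tef, Dbp, Per2 and Arntl.

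The fitted clock differences lay mostly on the other side of 0 under guanabenz and mostly on the PBS side under clonidine. Against PBS, 13 of 19 had the opposite sign under guanabenz and 5 of 19 under clonidine. Under clonidine Nr1d1 stood at 0.71, Dbp at 0.66, Ciart at 0.62, Tef at 0.31 and Nr1d2 at 0.21, all on the PBS side. Arntl at -0.05 and Cry1 at 0.01 kept the PBS sign with small values. Per3 at -0.10 and Per1 at -0.27 had the opposite sign to PBS. Nr1d1 had a positive difference in each treatment, at 0.27 under guanabenz, with separate groups under clonidine and guanabenz but overlapping groups under PBS. Per2 averaged 8.99 ± 0.97 CPM in KO-Control and 4.96 ± 1.3 CPM in WT-Control, 8.06 ± 0.89 CPM in KO-Clonidine and 8.42 ± 1.3 CPM in WT-Clonidine, and 5.24 ± 0.44 CPM in KO-Guanabenz and 10.9 ± 0.77 CPM in WT-Guanabenz. The PBS difference minus the guanabenz difference in Per2 was 1.93 ± 0.23 and was the only call of that test (edgeR adjusted p = 0.00546, 1 of 16125, 0.0062%), with the KO-Guanabenz libraries grouped by their title. For Tef the same quantity was 1.09 ± 0.17 (edgeR adjusted p = 0.08) and for Dbp 2.13 ± 0.39 (edgeR adjusted p = 0.205). The list median was 0.25 under PBS, 0.01 under clonidine and -0.29 under guanabenz. WT-Control had the lowest mean of Per2, Dbp and Tef and the highest mean of Arntl among the 6 groups.

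**Figure D3:**
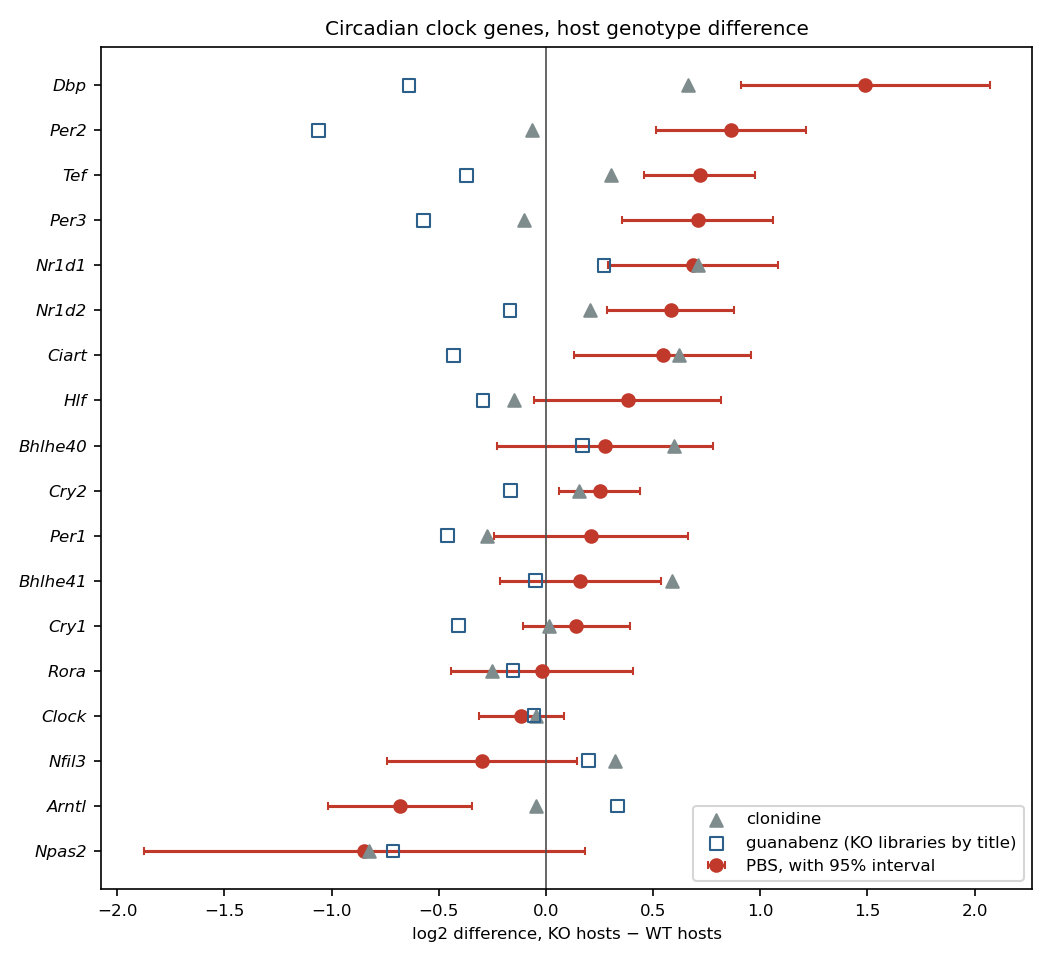
Log2 difference KO minus WT hosts (horizontal axis) of 18 of the 19 clock genes tested, ordered by the PBS value. Red points with 95% intervals are the PBS comparison, grey triangles clonidine and open blue squares guanabenz, with KO libraries by title. Dbp, Per2, Tef, Per3, Nr1d2, Ciart and Cry2 lie above 0 under PBS and below 0 under guanabenz, and Arntl does the reverse.

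RefSeq promoters (GRCm38.p6) were available for 16 of the 19 clock genes, 21 start sites in all, and the 250 bases before each start were searched on both strands for the canonical E-box CACGTG, the motif of the BMAL1 and CLOCK dimer, and for the D-box TTATGTAA, a motif of the Dbp and Tef family. The 2 motifs do not overlap each other in the sequences printed. An E-box was found in 6 of the 21 clock promoters, which belong to 5 genes: Tef, Ciart, Bhlhe41, Cry1 and Per1. Of these, Bhlhe41, Cry1 and Per1 had overlapping groups under PBS. The E-box was found in 6.02% of all 32851 promoters of that length and in 7.66% of the promoters of tested genes. A D-box was found in 1 clock promoter, that of Per3. It was found in 0.819% of all promoters and in 0.555% of those of tested genes. The 4 sequences printed are those of Tef and Per3, the genes with the smallest p that hold a match, and of Ciart, which holds 3 E-boxes, the most of any clock gene in the table. They run 5′ to 3′ up to the base before the start, and capitals mark the motif matches.
Tef, first start (chr15:81802423-81802672, plus strand): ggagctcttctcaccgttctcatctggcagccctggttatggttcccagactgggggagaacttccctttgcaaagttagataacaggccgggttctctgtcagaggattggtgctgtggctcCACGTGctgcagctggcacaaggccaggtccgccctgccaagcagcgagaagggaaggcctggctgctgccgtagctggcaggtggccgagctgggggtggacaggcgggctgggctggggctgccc
Tef, second start (chr15:81811164-81811413, plus strand): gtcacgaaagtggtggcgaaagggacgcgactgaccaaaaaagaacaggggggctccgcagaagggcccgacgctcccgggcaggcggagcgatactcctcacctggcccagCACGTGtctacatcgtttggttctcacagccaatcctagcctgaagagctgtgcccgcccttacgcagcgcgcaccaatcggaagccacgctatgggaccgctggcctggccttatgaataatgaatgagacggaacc
Ciart (chr3:95882229-95882478, minus strand): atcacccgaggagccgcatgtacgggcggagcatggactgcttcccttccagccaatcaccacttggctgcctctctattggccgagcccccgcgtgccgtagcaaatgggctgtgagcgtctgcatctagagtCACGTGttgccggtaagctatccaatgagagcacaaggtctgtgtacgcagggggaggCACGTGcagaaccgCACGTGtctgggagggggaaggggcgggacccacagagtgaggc
Per3 (chr4:151044666-151044915, minus strand): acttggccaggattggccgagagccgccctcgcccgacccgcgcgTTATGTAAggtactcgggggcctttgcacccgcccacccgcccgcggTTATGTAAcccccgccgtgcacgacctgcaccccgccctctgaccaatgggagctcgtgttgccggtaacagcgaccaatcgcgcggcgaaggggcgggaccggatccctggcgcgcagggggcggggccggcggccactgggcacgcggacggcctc
Counted from the start site, the E-boxes begin at -127 and -138 in the Tef promoters and at -116, -58 and -44 in that of Ciart, and the D-boxes of Per3 begin at -205 and -158. The windows of Arntl, Dbp, Nr1d1, Nr1d2 and Cry2 held neither motif. These matches describe the letters of the windows, and no binding was measured.

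Nearly all mitotic genes had slightly higher fitted values in KO-Control. Of 24 genes of the G2 and M phases, 23 had a fitted difference above 0, against 50.1% of all genes, and the median was 0.15, a factor of 1.11. There were 5 genes with an unadjusted p under 0.05 (20.8%, against 3.68% of all genes), all higher in KO-Control, and none was called by edgeR or DESeq2. In 8 of 24 genes (33.3%, against 4.56% of all genes) each KO-Control library lay above each WT-Control library. The summed level of the list overlapped, at 2738, 2362 and 2638 CPM in KO-Control and 2366, 2301 and 2417 CPM in WT-Control, with KO-Control replicate 2 below WT-Control replicates 1 and 3. Kif23, a kinesin of the central spindle, had 81.7, 78.9 and 79.5 CPM in KO-Control and 70.5, 65.8 and 67.8 CPM in WT-Control (log2 0.23 ± 0.06, edgeR adjusted p = 0.962). Ndc80, a kinetochore gene, had 60.1, 55.3 and 55.8 CPM in KO-Control and 51.2, 49.1 and 50.2 CPM in WT-Control (log2 0.19 ± 0.07, edgeR adjusted p = 1). In both genes the groups stood apart by a few CPM.

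Mastl, which encodes the Greatwall kinase that holds cells in mitosis, was not on that list. It had the second smallest p of all genes, with 30.2, 28.6 and 32.2 CPM in KO-Control and 22.5, 24.2 and 22.9 CPM in WT-Control (log2 0.38 ± 0.07, edgeR adjusted p = 0.121). The proliferation marker Mki67 had 305, 304 and 301 CPM in KO-Control and 295, 284 and 273 CPM in WT-Control, a difference of 0.09 ± 0.08. The S phase list did not share the shift, with 10 of 22 above 0 and a median of -0.01. The G2 and M median was 0.15 under clonidine as well and -0.01 under guanabenz.

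The other genes with the smallest p were single genes of mixed function. Apol8, an apolipoprotein L family gene, had 59.8, 50.6 and 56.7 CPM in KO-Control and 29.7, 20.9 and 32.2 CPM in WT-Control (log2 1.01 ± 0.19, edgeR adjusted p = 0.182). Esp8, of the multicopy exocrine gland peptide family whose copies can share reads, had 2.58, 3.40 and 2.23 CPM in KO-Control and 0.883, 0.504 and 0.582 CPM in WT-Control (log2 2.07 ± 0.40, edgeR adjusted p = 0.182). Neither overlapped between the genotypes under PBS, and both differed the other way under clonidine, at -0.72 for Apol8 and -1.49 for Esp8. The difference between PBS and clonidine stood at 1.73 ± 0.27 for Apol8 and 3.56 ± 0.57 for Esp8 (edgeR adjusted p = 0.0572 each). Rab11fip1, a gene of endosome recycling, differed by 0.67 ± 0.14, Aebp1, a matrix-associated carboxypeptidase-like gene, by 0.38 ± 0.08, and Vps26a, a retromer subunit gene, by 0.23 ± 0.05, with edgeR adjusted p of 0.333, 0.501 and 0.619.

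On the lower side Sh3gl3, an endophilin gene of membrane traffic, had 4.00, 4.62 and 3.28 CPM in KO-Control and 6.87, 6.82 and 5.52 CPM in WT-Control (log2 -0.69 ± 0.15, edgeR adjusted p = 0.532). Its genotype difference under clonidine was 0.76 (edgeR adjusted p = 0.0231), and PBS minus clonidine came to -1.45 ± 0.22 (edgeR adjusted p = 0.0572). Dpyd, the first enzyme of pyrimidine breakdown, had 3.12, 2.81 and 2.72 CPM in KO-Control and 5.82, 5.29 and 5.43 CPM in WT-Control (log2 -0.94 ± 0.23, edgeR adjusted p = 0.672). Neither gene overlapped between the genotypes. Wdr78, a dynein intermediate chain gene of cilia, had 1.57, 1.60 and 1.56 CPM in KO-Control and 2.46, 2.95 and 2.01 CPM in WT-Control, and its difference was -0.64, -0.61 and -0.54 under PBS, clonidine and guanabenz. It passed the adjustment in none of the 3 (edgeR adjusted p = 0.792, 0.0538 and 0.523). The Wnt ligand gene Wnt6 differed by -1.17 ± 0.32 and Tmod2, an actin filament capping gene, by -1.12 ± 0.31, both below 6 CPM in every library of the comparison. Socs1, which restrains cytokine signalling through JAK kinases, differed by -0.31 ± 0.09 without overlap, at 15.9 to 18.2 CPM in KO-Control and 20.1 to 22.1 CPM in WT-Control. Ehbp1l1 and Sft2d1, both linked to membrane traffic, differed by -0.25 and -0.17, and the edgeR adjusted p of these 5 genes was between 0.8 and 1.

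With edgeR on all 18 libraries none of the 45 gene lists examined held a call, while DESeq2 called 6 genes of the clock list and none of the other lists. Of the 45 lists, 32 had a median within 0.1 of 0 on the log2 scale. The medians ran from -0.15 for pericyte and smooth muscle genes to 0.29 for mast cell and eosinophil genes. With 1 library left out in turn, 14 of the 45 medians kept their sign in all 6 settings. The pericyte and smooth muscle median did not, at 0.02 without WT-Control replicate 1. In bulk tumour RNA, fewer cells of a type and less RNA per cell cannot be told apart.

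**Figure D4:**
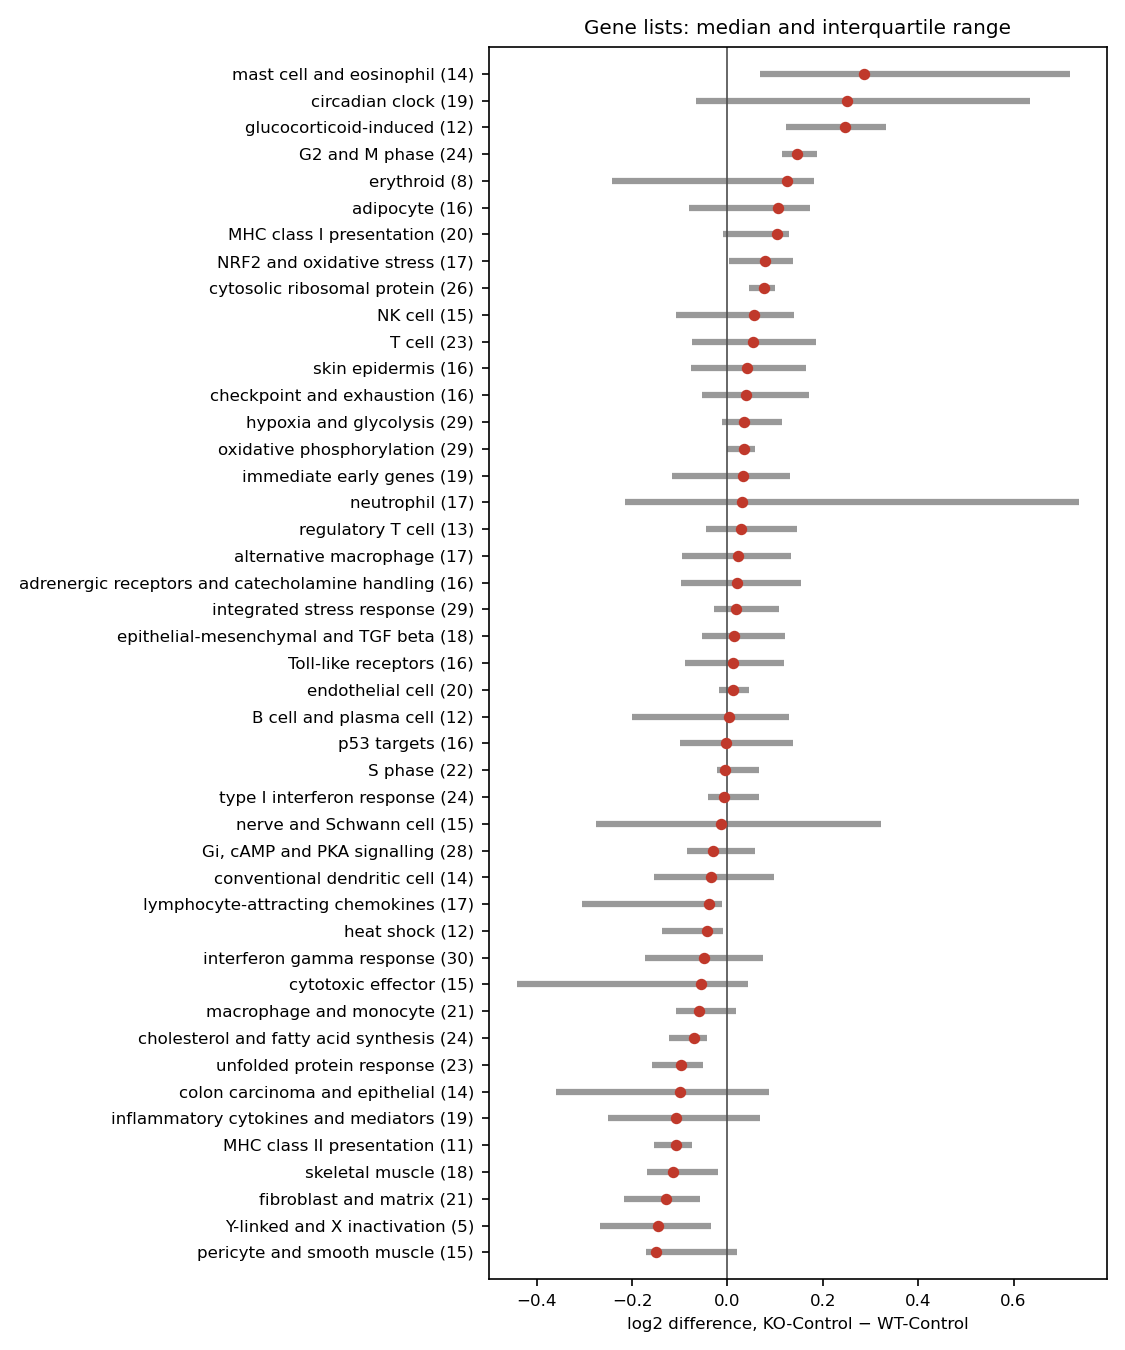
Median (red point) and interquartile range (grey bar) of the fitted log2 differences KO-Control minus WT-Control (horizontal axis) for the 45 gene lists, with the number of genes tested in parentheses. Mast cell and eosinophil, circadian clock, glucocorticoid-induced and G2 and M phase genes have the highest medians, between 0.15 and 0.29, and the glucocorticoid-induced median was -0.04 without KO-Control replicate 2.

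The other adrenergic genes held no call with edgeR or DESeq2. In the list of 16 tested adrenergic receptor and catecholamine genes, 9 were above 0 and the median was 0.02. Adra2a was the sole member with an unadjusted p under 0.05 (6.25%, against 3.68% of all genes). Adra2b, the second alpha2 receptor gene tested, had between 0.235 and 0.462 CPM in KO-Control and between 0.244 and 0.38 CPM in WT-Control. Maoa, which degrades noradrenaline, was between 51.5 and 54.3 CPM in KO-Control and between 42.8 and 50.5 CPM in WT-Control (log2 0.16 ± 0.08, edgeR adjusted p = 1). Maoa and Adra2a were the only members whose groups did not overlap, 2 of 16 (12.5%, against 8.33% of all genes). The 28 genes of Gi, cyclic AMP and protein kinase A signalling had a median of -0.03. None had an unadjusted p under 0.05, against 3.68% of all genes. The groups did not overlap in 2 of 28 (7.14%, against 8.33% of all genes), both lower in KO-Control.

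T cell genes lay on both sides of 0 under PBS. Of 23 genes, 13 were above 0 and the median was 0.05. Cd3e, a chain of the T cell receptor complex, had 3.94, 2.80 and 3.16 CPM in KO-Control and 1.95, 3.84 and 3.68 CPM in WT-Control, with a 95% interval of the difference between -0.59 and 0.70. Cd8a had 8.36, 5.37 and 4.67 CPM in KO-Control and 3.06, 7.06 and 6.92 CPM in WT-Control (95% interval -0.67 to 0.87). The groups overlapped in both, and the intervals leave room for differences of more than 1.5-fold either way. The coreceptor gene Cd4 and the regulatory T cell factor gene Foxp3 did not overlap, with differences of 0.37 ± 0.22 and 0.25 ± 0.29, and Cd6, an adhesion receptor of T cells, differed by 0.70 ± 0.28 (edgeR adjusted p = 1 each). The lowest KO-Control value of Cd4 was 6.51 CPM and its highest WT-Control value 6.48 CPM. Groups did not overlap in 1 of 23 T cell genes (4.35%) and 2 of 13 regulatory T cell genes (15.4%), against 8.33% of all genes. Under clonidine the T cell median was -0.75 and the regulatory T cell median -0.70, against 0.05 and 0.03 under PBS. The lists of checkpoint, NK cell and B cell genes had PBS medians of 0.04, 0.06 and 0.00.

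Effector gene values overlapped between the genotypes. Gzmb, which encodes granzyme B, had 3.34, 7.77 and 3.84 CPM in KO-Control and 5.28, 9.57 and 4.84 CPM in WT-Control (log2 -0.39 ± 0.36). Prf1, the perforin gene, differed by -0.19 ± 0.29 and Ifng, the interferon gamma gene, by -0.05 ± 0.47, with overlapping groups. The cytotoxic list had 11 of 15 below 0 and a median of -0.05, the interferon gamma response list 18 of 30 below 0 and a median of -0.05, and the type I interferon list a median of -0.01. Cxcl9, a chemokine that draws T cells, had 82.5, 38.9 and 63.8 CPM in KO-Control and 41.0, 51.1 and 96.6 CPM in WT-Control. The checkpoint ligand gene Cd274 differed by 0.07 ± 0.20.

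Myeloid genes showed small differences without a call. The macrophage and monocyte list had 14 of 21 below 0 and a median of -0.06, and its summed level was 12800 to 12880 CPM in KO-Control and 13240 to 14300 CPM in WT-Control. That median was 0.01 without WT-Control replicate 3. Adgre1, the F4/80 macrophage marker gene, had 240, 159 and 231 CPM in KO-Control and 195, 219 and 256 CPM in WT-Control. Arg1 and Nos2, the arginine-consuming enzymes of macrophage states, spread over 33.4 to 106 CPM and 3.33 to 12.4 CPM in KO-Control, and over 41.7 to 79.5 CPM and 3.96 to 7.06 CPM in WT-Control. In MHC class II genes 10 of 11 were below 0 with a median of -0.11. The groups overlapped in every member, whereas 8.33% of all genes had groups without overlap. H2-Ab1 spread over 222 to 329 CPM in KO-Control and 189 to 419 CPM in WT-Control. The class II median was 0.15 without WT-Control replicate 3. MHC class I genes had 12 of 20 above 0 and a median of 0.10, and B2m, their invariant light chain gene, differed by 0.16 ± 0.13. The alarmin gene S100a8 of neutrophils differed by 0.61 ± 0.60.

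Genes of mast cells and eosinophils topped the lists. Of 14 genes tested, 12 were above 0, the median was 0.29 (1.22-fold), and their summed level was 50.0 to 63.3 CPM in KO-Control and 43.7 to 52.4 CPM in WT-Control. The median was 0.15 without WT-Control replicate 3 and 0.52 without WT-Control replicate 1. The groups did not overlap in 3 of the 14 (21.4%, against 4.56% of all genes, all higher in KO-Control). Cpa3, the mast cell carboxypeptidase gene, had 2.87, 1.41 and 1.97 CPM in KO-Control and 1.12, 0.997 and 0.714 CPM in WT-Control (log2 1.16 ± 0.60, edgeR adjusted p = 1). Ccr3, the eotaxin receptor gene, differed by 0.70 ± 0.31 below 0.5 CPM. Under clonidine the median of the same genes was -0.76 and under guanabenz -0.44.

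Stromal matrix genes were nearly all on the lower side by small amounts. Of 21 fibroblast and matrix genes, 20 were below 0 and 1 was above 0 (4.76%, against 50.1% of all genes). An unadjusted p under 0.05 was found in 1 gene (4.76%, against 3.68% of all genes). The median was -0.13, and it was -0.30 without KO-Control replicate 1. Col1a1, the main fibrillar collagen chain gene, had 3672, 2943 and 2346 CPM in KO-Control and 5135, 3712 and 3262 CPM in WT-Control (log2 -0.43 ± 0.17, edgeR adjusted p = 1). The groups overlapped, since KO-Control replicate 1 was above WT-Control replicate 3. The list median was 0.07 under clonidine and 0.25 under guanabenz. Endothelial genes had a median of 0.01, and Pecam1, an endothelial adhesion gene, differed by 0.02 ± 0.12.

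Stress and metabolic programmes had small fitted differences. Glucocorticoid-induced genes had 11 of 12 above 0 and a median of 0.25. Their summed level was 914, 1302 and 910.1 CPM in KO-Control and 925, 842 and 930 CPM in WT-Control. KO-Control replicate 2 alone stood above the WT-Control range, and without it the median was -0.04. Sgk1 had 136, 173 and 130 CPM in KO-Control and 100.5, 106.9 and 149.3 CPM in WT-Control, with overlap (log2 0.30 ± 0.12, edgeR adjusted p = 1). In the unfolded protein response list 18 of 23 were below 0 with a median of -0.10, and 3 (13%) had an unadjusted p under 0.05, against 1.43% of all genes on that side. Sdf2l1, an endoplasmic reticulum chaperone partner, had 81.5, 67.8 and 65.2 CPM in KO-Control and 86.1, 98.8 and 91.6 CPM in WT-Control, without overlap (log2 -0.37 ± 0.13, edgeR adjusted p = 1). Cholesterol and fatty acid synthesis genes had 21 of 24 below 0 and a median of -0.07, led by the desaturase gene Scd2 on chromosome 19 at -0.37 ± 0.15. That median was 0.00 without KO-Control replicate 2 and 0.06 without WT-Control replicate 3. Cytosolic ribosomal protein genes had 23 of 26 above 0 and a median of 0.08 under PBS, against 0.33 under clonidine. Hypoxia genes had a median of 0.04 and the angiogenic factor gene Vegfa differed by -0.01 ± 0.26. Integrated stress response genes had a median of 0.02, and Trib3, a target of that response, differed by 0.01 ± 0.17. Fos stood at 0.09 ± 0.24, within an immediate early gene list whose median was 0.03.

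Lists that mark other tissue in the sample had overlapping ranges in both genotypes. Skeletal muscle genes summed to 237 to 332 CPM in KO-Control and 207 to 408 CPM in WT-Control, and skin epidermis genes to 112 to 270.2 CPM in KO-Control and 175 to 189 CPM in WT-Control. Erythroid genes summed to 143 to 388 CPM in KO-Control and 174 to 294 CPM in WT-Control, and the globin gene Hba-a1 ranged over 122 to 322 CPM in KO-Control and 145 to 243 CPM in WT-Control. None of these lists separated the groups.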

How the data were processed

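The authors deposited 1 table of estimated counts per gene for all 18 libraries. The reads were trimmed with Trim Galore 0.6.5 and quantified with kallisto 0.46.0 on GRCm38, per the submitters' processing notes; the sources used here do not state strandedness, so overlapping antisense genes cannot be told apart. The deposited estimated counts are whole numbers. Of 21015 identifiers, 20994 matched a RefSeq symbol (GRCm38.p6), and the 21 others held at most 0.022% of any library.

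Genes were kept with filterByExpr, scaled by TMM and fitted in edgeR 4.0.16 (R 4.3.3) with 6 group means over 18 libraries (12 residual degrees of freedom, biological coefficient of variation 0.145). The quasi-likelihood tests were two-sided, with Benjamini-Hochberg adjustment over 16125 genes in each of 5 contrasts, and the code was tested on simulated counts. At these totals, 54.7e6 to 491.1e6 per library, the spread between libraries and not the depth sets the precision of most genes.

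The libraries, the 45 gene lists and the naming rule were chosen with earlier results of these data known. The rule took preset key genes, called genes, up to 10 genes per direction with the smallest p and no overlap, 2 genes per list and 3 neighbours of Adra2a, and a part of them is printed, some being not reported here; Per3, Nr1d1, Nr1d2, Cry2, Ciart, Scd3, Tlx1 and Pyroxd2 were added with their values in view. Settings tried besides these were DESeq2 1.42.0, limma-voom 3.58.1, other scaling and filters, other groupings, a Y-linked term and leaving out each library.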

Additional observations from a re-analysis of the deposited data

Results flagged for a closer look

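The genotype difference of Per2 differed between hosts given PBS and hosts given guanabenz by a direct test. Per2, a repressor of the circadian clock, had 8.38, 10.1 and 8.49 CPM in KO-Control and 6.38, 4.68 and 3.82 CPM in WT-Control. It averaged 5.24 ± 0.44 CPM in the libraries titled KO-Guanabenz and 10.9 ± 0.77 CPM in WT-Guanabenz (SD, n = 3 each). The PBS difference minus the guanabenz difference was 1.93 on the log2 scale, with a standard error of 0.23 and an edgeR adjusted p of 0.00546. All 3 KO libraries were above all 3 WT libraries under PBS and below them under guanabenz. The KO-Guanabenz libraries carry the treatment entry Untreated against their title, and the labels give no hour of collection, so the part of either in the difference was not tested.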

How the results depend on the processing

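The count of calls in KO-Control against WT-Control was 1. It was 17 with DESeq2, 2 with the KO-Guanabenz libraries read as KO-Control, 0 with total-count scaling, the stricter filter, the 2 groups fitted alone or the Y-linked term, and 0 to 2 with 1 library left out. The calls with 1 library left out included Per2 without WT-Control replicate 1 (log2 1.085, edgeR adjusted p = 0.0304). They also included Nr1d2 without WT-Control replicate 2 (log2 0.8225, edgeR adjusted p = 0.0217). Neurl1a kept its direction in every setting run; its log2 value was 1.056 with total-count scaling (edgeR adjusted p = 0.0625), 1.053 with the stricter filter (0.0564), 1.057 with the 2 groups alone (0.31), 1.058 with the Y-linked term (0.137) and 0.97 to 1.22 with 1 library left out (edgeR adjusted p 0.0156 to 0.412). The replicate numbers of the titles did not pair the libraries: same-numbered KO-Control and WT-Control libraries correlated at -0.0178, 0.161 and -0.0267 in their deviations across genes. With a replicate block there were 0 calls and Neurl1a stood at 1.072 (edgeR adjusted p = 0.0677). The test of PBS against clonidine differences called 37 genes with DESeq2, 2 with limma-voom, 3 without a filter, 2 with the Y-linked term and 0 in the others. That of PBS against guanabenz differences called 13 with DESeq2, 2 with limma-voom, total-count scaling or the stricter filter, and 1 to 2 with 1 library left out. The clock median ran over 0.19 to 0.36 and the G2 and M median over 0.11 to 0.20 with 1 library left out. Without KO-Control replicate 3 the clock median was 0.36. An unadjusted p under 0.05 was found in 9 clock genes in the main edgeR fit. It was found in 7 with KO-Guanabenz read as KO-Control and in 12 without KO-Control replicate 3. Reversals touched uncalled genes, and the cause was not tested. With KO-Guanabenz read as KO-Control the log2 differences became 0.14 for Prf1, 0.41 for Ifng, 0.083 for Adgre1, -0.19 for Arg1, -0.17 for Nos2, 0.41 for H2-Ab1, 0.19 for Cxcl9, -0.069 for Trib3 and -0.042 for Cry1. With limma-voom they became -0.33 for Nos2, 0.089 for Cxcl9 and -0.023 for Hba-a1, and with the replicate block 0.045 for Ifng and 0.061 for Cxcl9. With the Y-linked term they became 0.0018 for Ifng, 0.00083 for Vegfa, -0.026 for Pecam1, -0.032 for Fos and 0.22 for Ddx3y. With 1 library left out, values on both sides of 0 came from Adra2b (-0.048 to 0.42), Cd3e (-0.19 to 0.21), Cd8a (-0.19 to 0.28), Prf1 (-0.57 to 0.0498), Ifng (-0.48 to 0.19), Adgre1 (-0.20 to 0.075), Arg1 (-0.28 to 0.47), Nos2 (-0.73 to 0.50), Cd274 (-0.15 to 0.22), H2-Ab1 (-0.40 to 0.21), Cxcl9 (-0.30 to 0.42), Vegfa (-0.245 to 0.12), Trib3 (-0.20 to 0.29), Pecam1 (-0.058 to 0.10), Hba-a1 (-0.30 to 0.43), Ddx3y (-0.95 to 0.32) and Per1 (-0.0703 to 0.45). Genes under about 1 CPM, Adra2a among them, rest on few counts in the libraries with the lowest totals.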

Other observations

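Further genes of the lists are given here as values. In the NRF2 and oxidative stress list 13 of 17 genes were above 0 and the median was 0.08. Gstm1, a glutathione transferase gene, had 38.7, 41.8 and 44.4 CPM in KO-Control and 34.3, 33.4 and 36.6 CPM in WT-Control, without overlap (log2 0.26 ± 0.12, edgeR adjusted p = 1). Gclc, which catalyses the first step of glutathione synthesis, differed by 0.18 ± 0.07 with overlap through WT-Control replicate 3. Phgdh, the entry enzyme of serine synthesis, had 2243, 2221 and 2763 CPM in KO-Control and 1883, 1746 and 2338 CPM in WT-Control, with overlap (log2 0.28 ± 0.13). Rpl4, a ribosomal protein gene, differed by 0.14 ± 0.06 without overlap.

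Among immune genes Tlr7, a receptor for single-stranded RNA, had 31.2, 31.1 and 37.7 CPM in KO-Control and 26.5, 29.9 and 26.6 CPM in WT-Control, without overlap (log2 0.27 ± 0.14). Havcr2, which encodes the inhibitory receptor TIM-3, differed by 0.25 ± 0.10 with overlap. The neutrophil list held 2 opposite trace genes: Mpo was between 0.0456 and 0.145 CPM in KO-Control and between 0.205 and 0.315 CPM in WT-Control, and Retnlg between 0.137 and 0.436 CPM in KO-Control and between 0.058 and 0.0812 CPM in WT-Control. All of these had an edgeR adjusted p of 1.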
